A study of Mus musculus with 8 samples.

Results

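The genes described here encode the receptor chains through which group 3 innate lymphoid cells (ILC3s) receive growth and activation signals: the receptors for interleukins 7, 23, 1, 18 and 2 and for stem cell factor. They were chosen by name, as 10 of the 27179 gene rows of the count table, and all 10 passed the filter on low counts that left 8878 genes for testing. ILC3s are tissue-resident lymphocytes of the gut that secrete interleukin 22. Bulk RNA-seq libraries were made from CCR6+ ILC3s of the large intestine at steady state, each from 1 C57BL/6 mouse, so variation from the animal cannot be told apart from variation in making its library. The sort took CD127+ CCR6+ cells with high CD90 and dim CD45 that lacked surface markers of T, NK, B and myeloid cells, and CD127 is the protein encoded by Il7r.

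The 4 Zbtb46-deficient libraries (replicates 5 to 8) came from mice with both copies of Zbtb46 floxed and a Cre recombinase active in ILC3s. The 4 Zbtb46-sufficient libraries (replicates 1 to 4), labelled wild type in the sample titles, came from mice with the same floxed alleles and no Cre. Carrying Cre and losing Zbtb46, a zinc finger transcription factor, therefore cannot be told apart. No label gives the age of the mice. In sorted bulk RNA, fewer cells expressing a gene and less RNA per cell cannot be told apart either. The single comparison of the design is deficient against sufficient.

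Interleukin 7, made largely by stromal and epithelial cells, binds a dimer of the Il7r product and the common gamma chain encoded by Il2rg, and keeps innate lymphoid cells alive. Interleukin 23 from myeloid cells binds a dimer of the Il23r and Il12rb1 products and, together with interleukin 1, drives secretion of interleukin 22 and interleukin 17. Interleukin 1 signals through the Il1r1 product paired with the accessory protein encoded by Il1rap. Kit is the receptor tyrosine kinase for stem cell factor and a common surface marker of ILC3s and of mast cells.

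Several of these receptors share a coding feature that the choice of genes did not use, and it is shown here because it marks members of 1 structural family among them. The WSXWS motif of type I cytokine receptors is encoded by a tryptophan codon, a serine codon, any codon, a second tryptophan codon and a second serine codon. The longest GENCODE M21 coding sequence of each gene was searched in frame. The motif was found in 4 of the 10 receptor genes and in 71 of 21584 coding genes (0.329%). The matches follow on the coding strand, 5′ to 3′, with the 15 bases of the motif in capitals.
Il7r: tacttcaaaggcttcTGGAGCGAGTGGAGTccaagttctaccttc
Il2rb: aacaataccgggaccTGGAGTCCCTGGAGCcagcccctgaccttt
Il2rg: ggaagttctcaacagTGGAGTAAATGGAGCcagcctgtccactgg
Il12rb1: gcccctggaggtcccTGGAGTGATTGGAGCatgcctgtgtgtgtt
The capitals lie in GRCm38 at chr15:9511151-9511165 in exon 5 of Il7r (minus strand), chr15:78485763-78485777 in exon 7 of Il2rb (minus strand), chrX:101266215-101266229 in exon 5 of Il2rg (minus strand) and chr8:70813742-70813756 in exon 7 of Il12rb1 (plus strand). Each match lay within 1 exon. Il23r, also a type I receptor, held no match to these exact codons. Il2ra, Il1r1, Il1rap, Il18r1 and Kit held none either; Il1r1, Il1rap and Il18r1 belong to the immunoglobulin-like interleukin 1 receptor family and Kit to the receptor tyrosine kinases.

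Library totals ran from 26967170 to 33760743 counts in deficient ILC3s and from 25328231 to 29175568 in sufficient ones. A count of 0 in a library allows up to 0.0856 to 0.124 CPM (counts scaled to the TMM-scaled library total), taken as 3 counts; such limits cover counting error only, because amplified reads that carry no molecular identifier may be copies of 1 molecule. Zbtb46 had 2.17 ± 2.23 CPM in deficient and 43.1 ± 34.8 CPM in sufficient libraries (SD, n = 4 each). The groups did not overlap, as in 4.36% of all tested genes. In edgeR's quasi-likelihood test its log2 fold was -4.31 (standard error 1.42), with an unadjusted p of 0.0124 and an adjusted p of 0.885. The test thus did not call the floxed gene itself. All 11 ILC3 markers examined were detected in every library, and they summed to 22030 to 27737 CPM in deficient and 22496 to 35279 CPM in sufficient ILC3s. Deficient replicate 6 and sufficient replicate 1 stood apart on the first principal component, at 188 against 1.56 to 14.7 and at -166 against -25.7 to -6.13. They also had the fewest detected genes, 10668 and 10879, against 11366 to 14410 in the others. Other cell types' markers were high in particular libraries. The sum over macrophage and neutrophil genes reached 335 CPM in deficient replicate 5 and 738 CPM in deficient replicate 7, against 0.952 to 43.4 CPM in the other 6. Stromal and endothelial markers reached 1174 CPM in sufficient replicate 1 and 470 CPM in deficient replicate 7, epithelial markers 1296 CPM in sufficient replicate 2, and NK cell and ILC1 markers 598 CPM in deficient replicate 5.

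Per kb of exon, Il2rg and Il23r were the most abundant of the receptor transcripts, followed by Il7r, and Il1rap and Il12rb1 were the scarcest. Exon length was the union of the exons of all GENCODE transcripts of a gene, so a gene with long alternative ends is given too low a level. Il2rg averaged 785 ± 375 CPM per kb in deficient and 1054 ± 254 CPM per kb in sufficient ILC3s (SD, n = 4 each), above 99.4% of tested genes. Il23r averaged 615 ± 248 and 956 ± 277 CPM per kb in deficient and sufficient ILC3s. Il7r averaged 394 ± 72.2 CPM per kb in deficient and 384 ± 51.3 CPM per kb in sufficient ILC3s, above 98.0% of tested genes. Il2rg and Il23r exchanged the first and second place between libraries, each leading in 4 of 8, and Il7r came directly after them in all 8.

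The middle of the order held Il1r1, Kit and Il2ra, whose ranges overlapped. Their levels averaged 104 ± 49.9, 116 ± 31.9 and 89.1 ± 19.0 CPM per kb in deficient ILC3s, against 134 ± 15.6, 93.4 ± 26.4 and 87.6 ± 12.2 CPM per kb in sufficient ones. Il1r1 exceeded Kit in 5 of 8 libraries and Kit exceeded Il2ra in 5 of 8. Il2rb, at 46.1 ± 7.42 CPM per kb in deficient and 56.4 ± 13.6 CPM per kb in sufficient ILC3s, lay below Il2ra in all 8. Il18r1 followed with 32.6 ± 11.0 CPM per kb in deficient and 41.4 ± 8.44 CPM per kb in sufficient cells, below Il2rb in 6 of 8. A gap then separated Il18r1, at 18.3 CPM per kb in its lowest library, from Il1rap and Il12rb1, at 8.20 and 5.11 CPM per kb in their highest.

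**Figure D1:**
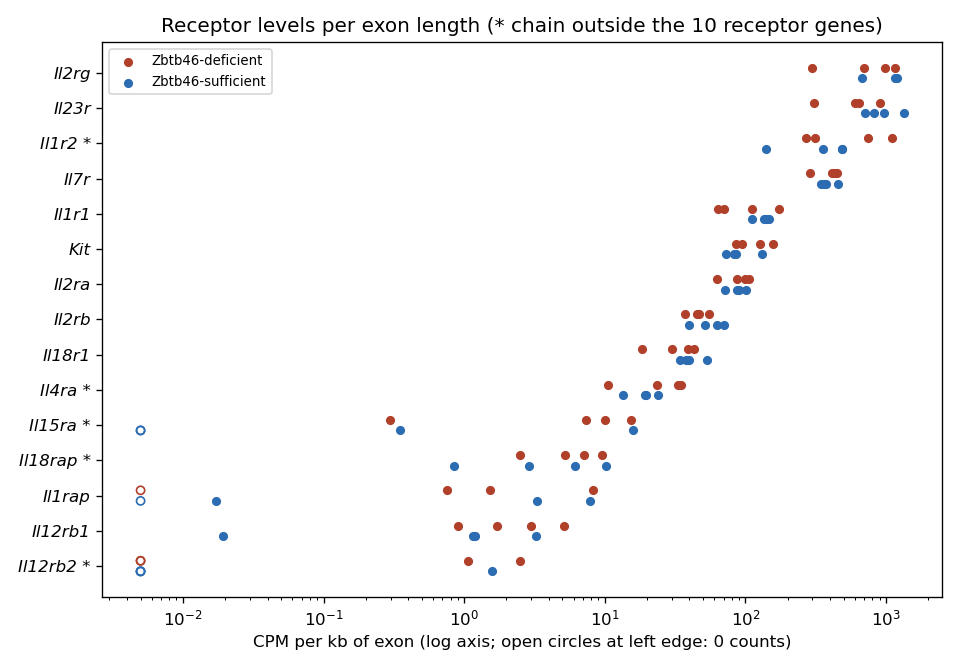
Level of each receptor transcript in CPM per kb of exon (log axis) in the 4 Zbtb46-deficient and 4 Zbtb46-sufficient libraries, 1 point per library, with open circles for 0 counts; asterisks mark 5 related chains outside the 10 genes. Il2rg and Il23r reach the highest levels, Il1rap and Il12rb1 reach at most 8.20 CPM per kb, and the groups overlap in every row.

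None of the 10 receptor genes differed between deficient and sufficient ILC3s past the threshold. The test was edgeR's quasi-likelihood F test with Benjamini-Hochberg adjustment over all 8878 tested genes, which called 0 genes in all (0% of those tested), while 364 (4.1%) had an unadjusted p under 0.05. Of the 10 receptor genes 0 had an unadjusted p under 0.05, each had an adjusted p of 0.9999, and DESeq2 also called 0 of them, against 374 of 11478 genes (3.26%). Groups overlapped in all 10, where 387 of the tested genes (4.36%) had groups that did not, 2.26% with deficient libraries higher and 2.1% with them lower. Fitted values were higher for 4 and lower for 6 of the 10, where 49.1% of tested genes were lower, with a median log2 fold of -0.19 against 0.02 over all tested genes. These tests do not show equal levels: the same test did not call Zbtb46 either, and the 95% intervals of the log2 folds are given with each gene. Folds are deficient over sufficient, and CPM use library totals scaled by edgeR's TMM factors.

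Il7r (Entrez 16197, chromosome 15, 9506159 to 9529941) encodes the interleukin 7 receptor alpha chain. It had 2015, 2085, 1346 and 1910 CPM in deficient replicates 5 to 8, against 1753, 1676, 1596 and 2136 CPM in sufficient replicates 1 to 4. Deficient replicate 7 was the lowest of the 8 and sufficient replicate 4 the highest, and the groups overlapped. Its log2 fold was 0.04 (standard error 0.195), and the 95% interval ran from -0.40 to 0.47, that is from a fold of 0.76 to 1.39. Il7r varied little between libraries, with a coefficient of variation within groups of 15.8%. Of the 1828 tested genes averaging 100 CPM or more, 6.24% varied less, and their median was 32.7%.

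Il2rg (Entrez 16186, chromosome X, 101264385 to 101268255) encodes the common gamma chain shared by the receptors for interleukins 2, 4, 7, 9, 15 and 21. It had 2749, 1673, 707 and 2363 CPM in deficient replicates 5 to 8, against 1611, 2757, 2815 and 2880 CPM in sufficient replicates 1 to 4. Sufficient replicate 1 and deficient replicates 6 and 7 were low, and the other 5 lay between 2363 and 2880 CPM. Fitted over all libraries, its log2 fold was -0.43 (standard error 0.375, 95% interval -1.26 to 0.41). Without deficient replicate 7 it was -0.14, without deficient replicate 5 -0.66 and without sufficient replicate 1 -0.59.

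Il2ra and Il2rb encode the alpha and beta chains of the interleukin 2 receptor; the beta chain also serves interleukin 15. Il2ra (Entrez 16184, chromosome 2, 11642792 to 11693194) had 565, 501, 361 and 608 CPM in deficient replicates 5 to 8, against 514, 408, 502 and 578 CPM in sufficient replicates 1 to 4. Its log2 fold was 0.02 (standard error 0.222, 95% interval -0.47 to 0.52), and its lowest and highest libraries were both deficient. Il2rb (Entrez 16185, chromosome 15, 78479256 to 78511621) had 194, 236, 201 and 158 CPM in deficient replicates 5 to 8, against 271, 304, 222 and 170 CPM in sufficient replicates 1 to 4. The 2 highest libraries were sufficient and the lowest was deficient, with a log2 fold of -0.29 (standard error 0.267, 95% interval -0.89 to 0.30). Both varied less than most genes at this level, with within-group coefficients of variation of 17.6% for Il2ra and 20.1% for Il2rb. Il2rb is also a gene of NK cells and ILC1s: it had 194 CPM in deficient replicate 5, where their markers summed to 598 CPM, and 271 CPM in sufficient replicate 1, where they summed to 37.5 CPM. Among the 8 markers summed, Ncr1 had the highest mean in deficient libraries, 254 CPM, followed by Klrb1c with 30.1 CPM. Ncr1 is a receptor gene of ILCs as well as NK cells, so the sum does not measure NK cells and ILC1s alone. The part of such cells in the Il2rb levels was not tested.

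Il23r (Entrez 209590, chromosome 6, 67422932 to 67491855), the chain that gives the interleukin 23 receptor its specificity, had the smallest p of the 10 genes. It had 1597, 2269, 764 and 1491 CPM in deficient replicates 5 to 8, against 1752, 2402, 2028 and 3331 CPM in sufficient replicates 1 to 4. Deficient replicates 5, 7 and 8 lay below all sufficient libraries, and deficient replicate 6 lay above 2 of them. The fitted fold was 0.643 with a 95% interval from 0.391 to 1.06, and on the log2 scale this is -0.64 (standard error 0.324). Its unadjusted p was 0.0775 and its adjusted p 0.9999 in edgeR's quasi-likelihood test, and over all settings the adjusted p ran from 0.421 to 0.9999. Leaving libraries out gave a log2 fold of -1.005 without sufficient replicate 1 and deficient replicate 6, the libraries that stood apart, and -0.41 without deficient replicate 7.

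Il12rb1 (Entrez 16161, chromosome 8, 70808360 to 70823542), the partner of Il23r in the interleukin 23 receptor and a chain of the interleukin 12 receptor, was scarce. It had 7.08, 21.0, 12.3 and 3.69 CPM in deficient replicates 5 to 8, against 13.3, 4.88, 4.76 and 0.0786 CPM in sufficient replicates 1 to 4. These values rest on 118 to 552 counts in deficient libraries and on 2 to 341 in sufficient ones, with 2 counts in sufficient replicate 4. Its log2 fold of 0.93 (standard error 1.48) had a 95% interval from -2.36 to 4.22, so a change of several fold either way was not detectable. It was 1.76 without sufficient replicate 1 and 0.40 without deficient replicate 6. Per kb of exon, Il23r exceeded Il12rb1 in all 8 libraries, by 103-fold in the library with the smallest gap and by a median of 519-fold.

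The interleukin 1 receptor chains differed from each other in how evenly they were detected. Il1r1 (Entrez 16177, chromosome 1, 40222480 to 40316201), the signalling receptor chain, had 446, 1096, 407 and 705 CPM in deficient replicates 5 to 8, against 707, 895, 867 and 932 CPM in sufficient replicates 1 to 4. Deficient replicates 5, 7 and 8 lay below all sufficient libraries and deficient replicate 6 above all of them. For Il1r1 the log2 fold was -0.36 (standard error 0.309, 95% interval -1.05 to 0.33), -0.71 without deficient replicate 6 and -0.18 without deficient replicate 7. Fibroblasts also express this receptor: stromal and endothelial markers were highest in sufficient replicate 1 and deficient replicate 7, the libraries with the lowest Il1r1 of their groups, and their part in this was not tested.

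Il1rap (Entrez 16180, chromosome 16, 26581509 to 26730128) encodes the accessory chain of the interleukin 1 receptor and was present in some libraries and nearly absent in others. It had 8.65, 93.1, 17.4 and 0 CPM in deficient replicates 5 to 8, against 89.6, 0, 37.5 and 0.197 CPM in sufficient replicates 1 to 4. The counts behind them were 303, 2452, 555 and 0 in deficient and 2289, 0, 1040 and 5 in sufficient libraries. A count of 0 allows 0.0939 CPM in deficient replicate 8 and 0.124 CPM in sufficient replicate 2. Each group thus held libraries near 0 and 1 library near 90 CPM, deficient replicate 6 or sufficient replicate 1. Its log2 fold of -0.10 (standard error 2.16) had a 95% interval from -4.92 to 4.72, and it turned to 1.25 without sufficient replicate 1. With a within-group coefficient of variation of 138%, Il1rap varied more than 84.4% of the 5587 tested genes with a mean from 1 to under 50 CPM; for Il12rb1 the coefficient was 82.1%, above 36.1% of them.

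Il18r1 (Entrez 16182, chromosome 1, 40465552 to 40500854) encodes the ligand-binding chain of the interleukin 18 receptor. It had 144, 188, 88.0 and 208 CPM in deficient replicates 5 to 8, against 182, 193, 258 and 165 CPM in sufficient replicates 1 to 4. Deficient replicate 7 was the lowest and sufficient replicate 3 the highest, with the other 6 between 144 and 208 CPM. The log2 fold was -0.34 (standard error 0.324, 95% interval -1.06 to 0.38), with -0.51 without deficient replicate 8 and -0.14 without deficient replicate 7.

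Kit (Entrez 16590, chromosome 5, 75574987 to 75656722) had 1141, 1389, 845 and 770 CPM in deficient replicates 5 to 8, against 1178, 765, 739 and 649 CPM in sufficient replicates 1 to 4. All 4 deficient libraries lay above 3 of the sufficient ones, and sufficient replicate 1 lay above all but deficient replicate 6. The log2 fold was 0.32 (standard error 0.262, 95% interval -0.27 to 0.90), with an unadjusted p of 0.256 in edgeR's quasi-likelihood test, and it was 0.53 without sufficient replicate 1 and 0.14 without deficient replicate 6. Of 10 mast cell markers 8 had at most 3 counts in every library. The other 2 were Cpa3, at 66.2 CPM in deficient replicate 6 and at most 3.19 CPM elsewhere, and Hdc, at 30.8 CPM in sufficient replicate 2 and at most 11.5 CPM elsewhere. In the next libraries by Kit level, the 10 markers summed to 7.73 CPM in deficient replicate 5 (1141 CPM of Kit) and to 0 in sufficient replicate 1 (1178 CPM of Kit). The part of mast cells in the Kit levels was not tested.

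**Figure D2:**
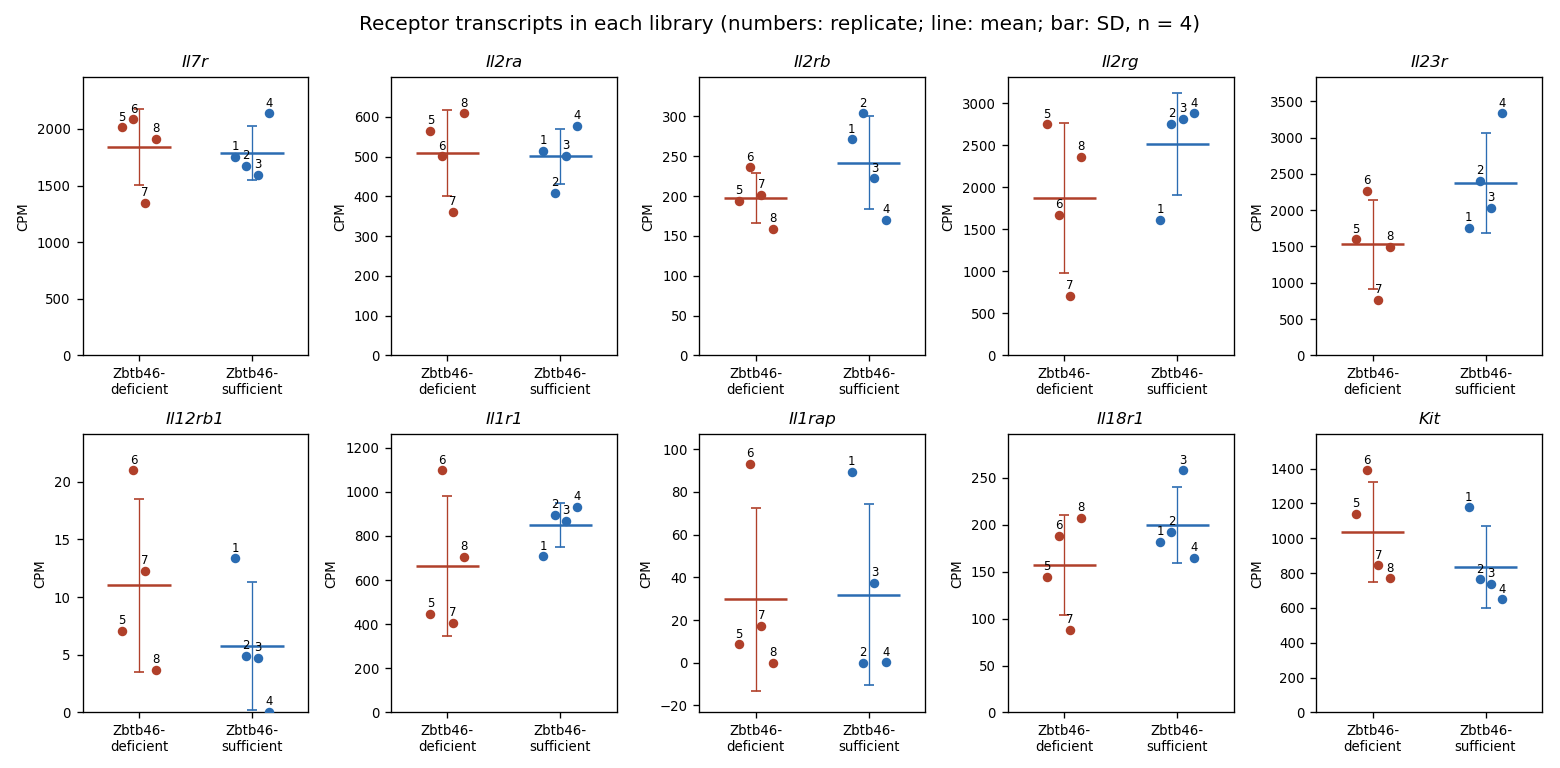
CPM of each of the 10 receptor genes in each library, Zbtb46-deficient left and Zbtb46-sufficient right, with replicate numbers, the group mean (line) and SD (bar, n = 4). The groups overlap in all 10 panels, and deficient replicate 7 is the lowest point in 6 of them.

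**Figure D3:**
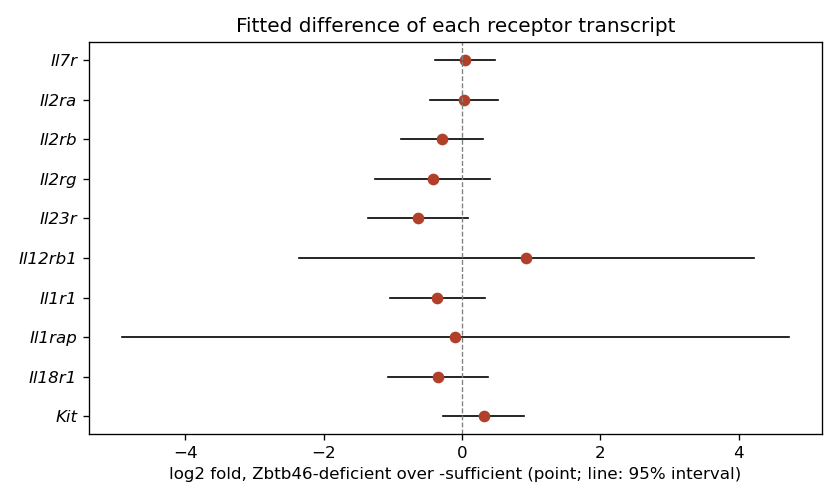
Fitted log2 fold of each receptor gene, deficient over sufficient (point), with its 95% interval (line). All 10 intervals include 0; that of Il7r is among the narrowest, from -0.40 to 0.47, and those of Il12rb1 and Il1rap span more than 6 log2 units.

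Deficient replicate 7 held the lowest value of 6 of the 10 genes: Il7r, Il2ra, Il2rg, Il23r, Il1r1 and Il18r1. The shares of all tested genes lowest or highest in a given library were not computed, so this is not read as particular to the receptor genes. Deficient replicate 7 also had the largest TMM factor, 1.09, which lowers its CPM for all genes alike. The 10 genes together summed to 8867, 9552, 4749 and 8217 CPM in deficient replicates 5 to 8, against 8070, 9405, 9068 and 10841 CPM in sufficient replicates 1 to 4. The same library had the highest sum of macrophage and neutrophil markers, 738 CPM, mostly from the neutrophil genes S100a8 and S100a9. It had the second highest sum of stromal and endothelial markers, 470 CPM. The part of such cells in its low receptor levels was not tested. With it left out, the log2 folds were -0.41 for Il23r, -0.14 for Il2rg, -0.18 for Il1r1 and -0.14 for Il18r1, closer to 0 than with it. Those of Il7r and Il2ra were 0.17 and 0.16, farther from 0. Leaving out the lowest library of a gene, here a deficient one, raises its deficient mean, so the direction of these shifts was fixed by the choice of genes. Deficient replicate 6 held the highest value of 4 genes, Il12rb1, Il1r1, Il1rap and Kit.

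The balance of receptor chains was compared through 7 ratios formed within each library, with a two-sided exact permutation test of each difference in group means. The smallest p that 4 against 4 libraries can give is 0.0286, and p-values were adjusted over the 7 ratios. Even at this smallest p, a single ratio could not pass after the adjustment. Most of the 7 would have had to separate fully. Ratios are log2 of CPM with 1 CPM added to each gene. They are not per length and are read between groups alone. The ratio of Il23r to Il12rb1 had the largest difference, at 7.12 ± 1.08 in deficient and 8.92 ± 1.95 in sufficient ILC3s (SD, n = 4 each), a difference of -1.80. Its exact p was 0.143 and its adjusted p 0.533. The difference was -0.90 without sufficient replicate 4, the library with 2 counts of Il12rb1, and -2.46 without sufficient replicate 1.

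The ratio of Il7r to Il2rg was 0.12 ± 0.631 in deficient and -0.46 ± 0.422 in sufficient ILC3s, a difference of 0.58 with an exact permutation p of 0.2. That of Il2ra to Il2rb was 1.35 ± 0.487 in deficient and 1.07 ± 0.554 in sufficient cells, and that of Kit to Il7r -0.85 ± 0.324 in deficient and -1.13 ± 0.467 in sufficient cells. The exact permutation p was 0.486 for the first and 0.371 for the second of this pair. The ratios of Il1r1 to Il1rap (-0.97), of Il18r1 to Il18rap (-0.98) and of Il23r to Il12rb2 (-1.42) were lower in deficient cells, with exact permutation p of 0.771, 0.4 and 0.229. Il12rb2 was detected in 3 libraries, and in the others its ratio reflects Il23r and the added 1 CPM alone. No ratio passed, which a single shifted ratio could not have done, and the groups overlapped in all 7.

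**Figure D4:**
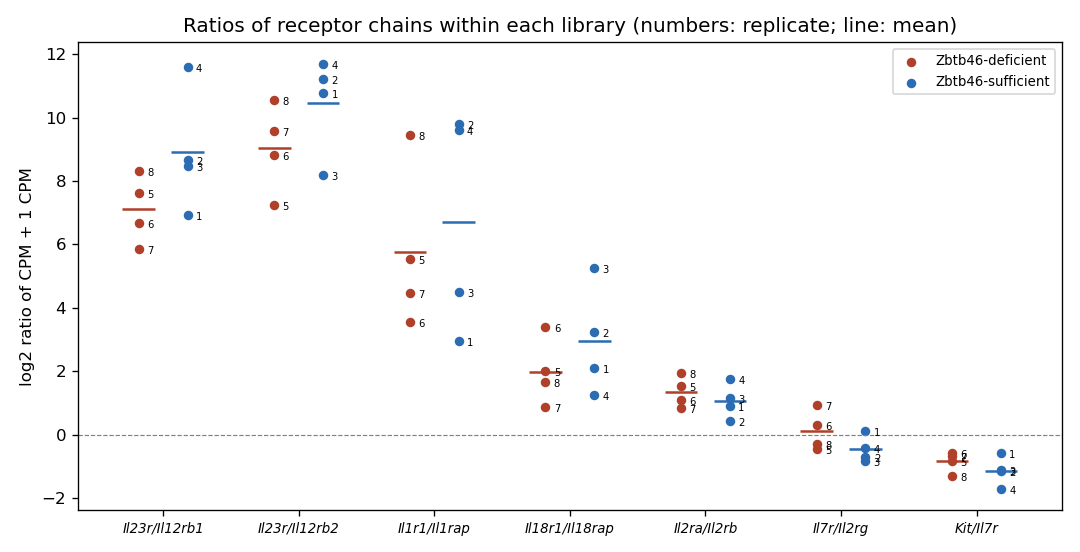
Log2 ratio of the CPM of 2 receptor chains in each library after adding 1 CPM, Zbtb46-deficient left and Zbtb46-sufficient right of each pair, with replicate numbers and group means (lines). Ratios that involve the scarce chains Il12rb1, Il12rb2, Il1rap and Il18rap spread over several log2 units, and the groups overlap in all 7.

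Of the 8 genes averaging 100 CPM or more, Il7r, Il2ra and Il2rb had the smallest within-group coefficients of variation. Il18r1, Kit and Il1r1 followed with 27.1%, 27.9% and 29.7%, and Il23r and Il2rg had 34.6% and 35.9%, just above the median of 32.7% for the 1828 tested genes of that level.

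**Figure D5:**
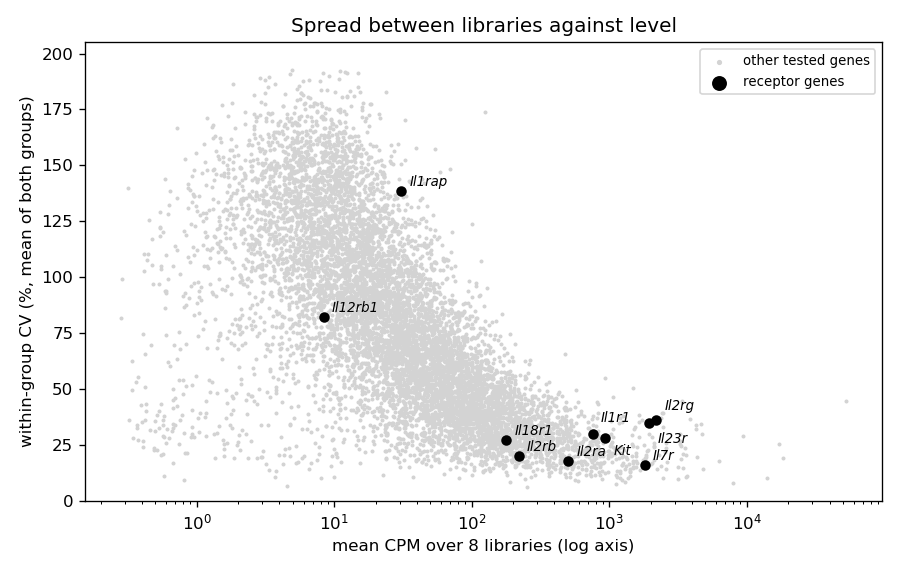
Within-group coefficient of variation of CPM (mean of both groups, in percent) against mean CPM over the 8 libraries (log axis) for all tested genes (grey) and the 10 receptor genes (black). Il7r, Il2ra and Il2rb have the lowest values of the 10, 15.8% to 20.1%, while Il1rap, at 138%, lies above most genes of its level.

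The genes whose profile over the 8 libraries was most like each receptor's were taken as the 2 with the smallest root mean square difference of centred log2 CPM, among genes averaging 100 CPM or more. The measure was not scaled by spread, so genes that vary little lie close to each other whatever their profiles. For Il7r they were Hsp90b1 (0.129) and Il2ra (0.142), where the median over the 1827 genes compared was 0.538. Il7r and Il2ra were the least variable of the receptor genes, so their closeness does not show a shared profile. For Il2ra they were Taf9 (0.126) and Il7r (0.142). The nearest genes were Gt(ROSA)26Sor (0.241) and Cxcr6 (0.247) for Il2rg, Srrm1 (0.175) and Rprd1b (0.182) for Il23r, and Zcchc10 (0.176) for Il18r1. For Il2rb they were Shisa5 (0.206) and Rbm18 (0.208), for Il1r1 Samsn1 (0.218) and Eif5 (0.220), and Hccs (0.219) was among those of Kit.

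Other chains of the same receptor families were followed as a list of 17 genes, of which 11 were tested, 7 with higher and 4 with lower fitted values in deficient ILC3s (median log2 fold 0.42), and 0 passed. Il1r2, the decoy receptor that binds interleukin 1 without signalling, was the most abundant of them. It had 1417, 515, 598 and 2120 CPM in deficient replicates 5 to 8, against 268, 935, 675 and 933 CPM in sufficient replicates 1 to 4. The 2 highest libraries were deficient and the lowest was sufficient replicate 1, with a log2 fold of 0.73 (standard error 0.506, 95% interval -0.40 to 1.85). Per kb of exon Il1r2 exceeded Il1r1 in all 8 libraries, by a median of 3.41-fold.

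Il18rap, the accessory chain of the interleukin 18 receptor, had 41.1 ± 20.1 CPM in deficient and 33.7 ± 27.4 CPM in sufficient ILC3s (SD, n = 4 each). Per kb it lay below Il18r1 in all 8 libraries, by a median of 5.99-fold. Il12rb2, which pairs with Il12rb1 in the interleukin 12 receptor, had at most 9.50 CPM in any library and 0 counts in 5 of 8, and did not pass the filter. Il27ra, a chain of the interleukin 27 receptor, had 22.01 ± 14.3 CPM in deficient and 7.65 ± 1.76 CPM in sufficient cells, with a log2 fold of 1.52 and an unadjusted p of 0.19 in edgeR's quasi-likelihood test. Il1rl1, the interleukin 33 receptor of ILC2s and mast cells, had at most 1.51 CPM, and the interleukin 9 receptor gene Il9r at most 0.216 CPM.

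Ligand transcripts of these receptor families varied widely between genes and libraries. Of 17 genes for ligands and soluble inhibitors 5 were tested and 0 passed, and 6 had at most 3 counts in every library. Il12a, Il12b and Il9 had 0 counts in all 8. Il7 was found in deficient replicate 7 alone, at 6.66 CPM, and the stem cell factor gene Kitl reached 26.4 CPM in deficient replicate 8 and at most 0.152 CPM elsewhere. Il1b had 13.1 ± 17.0 CPM in deficient and 0.956 ± 1.68 CPM in sufficient libraries and was highest, at 38.1 CPM, in deficient replicate 7. That library had the highest sum of macrophage and neutrophil markers, mostly S100a8 and S100a9, and deficient replicate 5, the next, had 0 counts of Il1b. Il1a had 34.4 and 32.4 CPM in sufficient replicates 1 and 2 and at most 0.0313 CPM in the other 6 libraries, and Il15 reached 36.6 CPM in sufficient replicate 2 and 23.2 CPM in deficient replicate 7. Il33, whose receptor gene Il1rl1 was nearly undetected, was found in all 8 libraries. It had 58.8 ± 34.7 CPM in deficient and 26.2 ± 29.3 CPM in sufficient libraries, with an unadjusted p of 0.261 in edgeR's quasi-likelihood test.

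Downstream of the cytokine receptors, 14 of 15 JAK-STAT genes were tested, 7 with higher and 7 with lower fitted values, and 0 passed. The groups did not overlap in 3 of them, Stat4, Ptpn6 and Socs1, where 4.36% of all tested genes had groups that did not overlap. Stat4, which transmits interleukin 12 and interleukin 23 signals, had 413, 741, 361 and 538 CPM in deficient replicates 5 to 8, against 744, 839, 1065 and 1067 CPM in sufficient replicates 1 to 4. Deficient replicate 6 and sufficient replicate 1 nearly met. The log2 fold was -0.86 (standard error 0.26, 95% interval -1.43 to -0.28), with an unadjusted p of 0.00798 and an adjusted p of 0.772 in edgeR's quasi-likelihood test. Ptpn6, which encodes the phosphatase SHP-1, an inhibitor of Kit and cytokine receptor signals, had 640, 198, 209 and 194 counts in deficient replicates 5 to 8, against 0, 1, 2 and 1 counts in sufficient replicates 1 to 4. In CPM it was at 6.07 to 18.3 in deficient libraries and at most 0.0721 in sufficient ones. Its unadjusted p was 0.00105 and its adjusted p 0.515 in edgeR's quasi-likelihood test. Ptpn6 passed the filter through the deficient libraries alone, so neither its p nor its lack of overlap is read as support. Socs1, an inhibitor of cytokine receptor signalling that was named after its values were seen, had 15.4 ± 6.15 CPM in deficient and 32.3 ± 8.40 CPM in sufficient ILC3s, with an unadjusted p of 0.224 in the same test of edgeR.

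Of 13 genes of interleukin 1 receptor signalling 12 were tested, 6 higher and 6 lower, and 0 passed. Peli1, a ubiquitin ligase of the pathway, had 60.6, 78.7, 124 and 87.3 CPM in deficient replicates 5 to 8, against 151, 125, 147 and 155 CPM in sufficient replicates 1 to 4. The groups did not overlap, by a margin of less than 1 CPM, and the unadjusted p was 0.0505 in edgeR's quasi-likelihood test. Irak2, a kinase of the receptor complex, had 95.5 ± 26.3 CPM in deficient and 152 ± 36.1 CPM in sufficient ILC3s. Of 18 Kit signalling genes 17 were tested, 7 higher and 10 lower, and 0 passed. The pair with the smallest p was Nras, a small GTPase, with 121 ± 48.9 CPM in deficient and 70.4 ± 13.9 CPM in sufficient ILC3s, and Pik3ca, a catalytic subunit of phosphoinositide 3-kinase, with 191 ± 106 CPM in deficient and 110 ± 29.9 CPM in sufficient cells.

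Among genes that interleukins 2 and 7 are known to induce, 6 of 8 were tested, 3 higher and 3 lower, and 0 passed. The survival gene Bcl2 had 453 ± 331 CPM in deficient and 298 ± 58.0 CPM in sufficient ILC3s, with 947 CPM in deficient replicate 6 alone. Its relative Mcl1 had 130 ± 40.8 CPM in deficient and 152 ± 50.6 CPM in sufficient cells. Among genes induced by interleukins 23 and 1, 6 of 6 were tested, 5 higher and 1 lower, and 0 passed. Il22, the gene lower in this list, had 15419 ± 2502 CPM in deficient and 21238 ± 4647 CPM in sufficient ILC3s, a log2 fold of -0.46 (95% interval -0.93 to 0.01). Il17f had 2796 ± 983 CPM in deficient and 1978 ± 766 CPM in sufficient cells, a log2 fold of 0.50 (95% interval -0.27 to 1.27).

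Among the markers of ILC3s and of other cells, 0 of the tested genes passed. All 11 ILC3 markers were tested, 4 with higher and 7 with lower fitted values. In edgeR's quasi-likelihood test 4 of them had an unadjusted p under 0.05, against 4.1% of all tested genes. Their groups did not overlap in 2, Ltb and Tcf7, against 4.36% of all tested genes. The lymphotoxin beta gene Ltb had 49.0 ± 9.81 CPM in deficient and 133 ± 63.5 CPM in sufficient ILC3s, without overlap, and an adjusted p of 0.772 in edgeR's quasi-likelihood test. Nrp1 had 382 ± 183 CPM in deficient and 665 ± 103 CPM in sufficient cells. Thy1 went the other way, with 335 ± 87.9 CPM in deficient and 207 ± 57.5 CPM in sufficient cells. The NK and ILC receptor gene Ncr1 had 254 ± 141 CPM in deficient and 76.7 ± 85.6 CPM in sufficient libraries. It was the 1 gene with a higher fitted value among the 3 tested markers of NK cells and ILC1s. Klrb1c and Gzmb were lower, with log2 folds of -0.18 and -0.70. Of the markers not tested, Gzma, Klrd1 and Tbx21 had more counts in deficient libraries. Their summed counts were 2087, 819 and 410 in deficient and 1, 1 and 89 in sufficient libraries. Most came from single libraries for Gzma and Tbx21 (2081 and 396 in deficient replicate 5). Klrd1 had 554 and 264 counts in deficient replicates 7 and 8. Eomes had 2 summed counts in deficient and 3 in sufficient libraries, and Prf1 had 0 in both. The neutrophil gene S100a8 had 140 ± 162 and 3.30 ± 4.10 CPM in deficient and sufficient libraries. Of the same marker list, S100a9 had 114 ± 169 and 3.91 ± 5.71 CPM. Adgre1, Cd68, C1qa and C1qb, which were not tested, also had higher means in deficient libraries, at most 3.29 CPM. Lyz2 was the exception in this list, with 9.17 ± 17.5 CPM in deficient and 10.6 ± 12.2 CPM in sufficient libraries.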

How the data were processed

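Per the labels' protocols, cDNA came from an ultra-low-input SMARTer kit. CASAVA 1.8.2, STAR 2.3.0 and the mm10 build are named in the submitters' processing notes. The sources used here do not say how reads were assigned to genes or whether strand was used. The authors deposited raw read counts per Entrez gene, with no normalization. Symbols and gene coordinates came from RefSeq (GRCm38.p6, the assembly behind mm10), matching 25275 of 27179 rows; rows without a symbol held 0.303% of counts. Exon lengths and coding sequences came from GENCODE M21 (GRCm38). Of the receptor genes, the spans of Il2ra and Il1rap each overlap 1 noncoding gene model. The model at Il1rap had 0 counts and that at Il2ra has no row.

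Groups follow the sample titles, with 4 individual mice each per the series' design text. Counts were tested with edgeR 4.0.16 (R 4.3.3): TMM factors, filterByExpr by group, the quasi-likelihood F test and Benjamini-Hochberg adjusted p under 0.05 over all genes tested. Standard errors and 95% intervals were derived from the F statistic. The procedure was tested on simulated counts. The rule for named genes took all 10 receptor genes, Zbtb46, undetected members, the 2 tested genes of each list with the smallest p (for markers of other cells, mostly given as sums) and the 2 genes most like each receptor gene of at least 100 CPM. Other list members were named after their values were seen. The members and lists were chosen with earlier results of these data known. Some items that the rule named are not reported here. Alternatives were RLE, upper-quartile and no factors, DESeq2 1.42.0, limma 3.58.1 (voom with quality weights), robust dispersions, other filters, 1 surrogate variable (sva 3.50.0) and libraries left out.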

Additional observations from a re-analysis of the deposited data

Results flagged for a closer look

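Among the 34 groups of 4 values examined (10 receptor genes and 7 ratios in each genotype), 1 held a library far from the other 3. Chance gives about 1 in 20 groups, or 1.7 of the 34, so the 1 found is no more than chance gives. Il2rg, the common gamma chain gene, had 1611 CPM in sufficient replicate 1 and 2757 to 2880 CPM in the other sufficient libraries. The gap to the nearest of them took 90.4% of the range of the group. Sufficient replicate 1 was also the library that stood apart from its group on the first principal component.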

How the results depend on the processing

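No receptor gene passed under any setting run. Of 188 alternative log2 folds 176 kept their direction, and the 12 exceptions were Il7r, Il2ra and Il1rap. Il7r was at -0.0050 with limma-voom and at -0.033 without replicates 1 and 6 together, and at -0.023 to 0.17 with 1 library left out. Il2ra ran from -0.072 to 0.16 and Il1rap from -1.90 to 1.25 with 1 library left out, and Il1rap was at 0.25 with limma-voom. Il23r and Il1r1 had an unadjusted p under 0.05 with limma-voom (0.0115 and 0.0280), without deficient replicate 6 (0.0214 and 0.0173) and without replicates 1 and 6 together (0.0149 and 0.0158), and Il23r also with no filter (0.0381); their adjusted p there was 0.421 to 0.665. The ratio of Il1r1 to Il1rap ran from -2.22 to 0.064 with 1 library left out, and no other ratio turned. Adding 0.1 in place of 1 CPM changed no direction but moved the ratios with scarce chains, to -2.43 for Il23r to Il12rb1, -2.20 for Il23r to Il12rb2 and -1.42 for Il1r1 to Il1rap. Over all genes, DESeq2 called 240 higher and 134 lower, no filter 1 and 1, a mean of at least 100 CPM 1 and 3, and leaving out 1 library 0 higher and 0 to 2 lower; the cause was not tested. The median log2 fold of all genes was 0.11 with no factors, against 0.02 with TMM on the same genes. On 19290 unfiltered genes it was -0.19 with edgeR and -0.24 with DESeq2. No paired analysis was possible because the replicate numbers run from 1 to 8 over both groups. Il1rap and Il12rb1 had libraries with 5 or fewer counts, and the cause of these low counts was not tested. Leaving out 1 library gives 4 against 3, where the smallest exact p is 0.0571.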

Other observations

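Libraries of different genotype resembled each other in several receptor genes. Deficient replicate 6 and sufficient replicate 1, which had the fewest detected genes in their groups, had the highest Kit (1389 and 1178 CPM), Il1rap (93.1 and 89.6 CPM) and Il12rb1 (21.0 and 13.3 CPM) of the 8 libraries. The interleukin 15 receptor alpha chain gene Il15ra followed, with 68.7 and 70.7 CPM in this pair and 0 to 44.4 CPM in the others. The resemblance was noticed after the values were seen and was not tested.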
